A study of Homo sapiens with 36 samples.

Results

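The zinc finger genes of chromosome 19 were followed through RNA of human HCT116 cells, a colon carcinoma line, in which the exosome ribonuclease DIS3 can be removed. Members were the protein-coding genes of chromosome 19 whose symbol is ZNF followed by a number, with ZNF850 left out, and whose mean raw count over the 12 cytoplasm total RNA libraries was at least 10. Of 240 such genes, 156 met the minimum, among 59607 features counted in total RNA, and 84 did not. ZNF233, with a mean of 11 counts, lay just inside the minimum and ZNF439, with 9.33, just outside. The highest mean was 16352.3 counts, for ZNF121, and the median member had 747.4.

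The tested line, DIS3-AID, is 1 CRISPR clone in which DIS3 carries an auxin-inducible degron (AID) and which also expresses TIR1, the plant auxin receptor that marks degron-tagged proteins for destruction. The control line expresses TIR1 with no degron on DIS3. The 4 groups were DIS3-AID cells given 500 uM auxin for 1 h, untreated DIS3-AID cells, control cells given the same auxin, and untreated control cells. Total ribo-depleted RNA was sequenced from chromatin and from cytoplasm, and polyA RNA from cytoplasm, with 3 libraries per group and 36 in all. The series describes the cytoplasm triplicates as technical, so the p-values speak of library-to-library spread alone, which may be technical. Since DIS3-AID is 1 clone, a difference between the lines cannot be told apart from other differences between clones.

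Proteins of this family bind DNA through repeated C2H2 fingers, short loops in which 2 cysteines and 2 histidines hold a zinc ion. Many carry a KRAB domain at the amino end, which recruits the corepressor TRIM28 and with it the histone methyltransferase SETDB1 to silence retrotransposons. The genes arose by tandem duplication and stand in clusters on chromosome 19, so that close relatives share long stretches of sequence. The RNA exosome degrades nuclear RNA from its 3′ end, and DIS3 is one of its catalytic subunits.

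Library totals, in units of 1 M counts, were 50.3 to 139.0 on chromatin, 59.5 to 122.6 in cytoplasm total RNA and 25.9 to 33.1 in polyA RNA. Members together took 0.230% to 0.243% of all counts in the 4 cytoplasm total RNA groups. DIS3 RNA does not report on the degron, which acts on protein. Its cytoplasmic level was 45.8 ± 0.937 CPM (counts per 1 M counts of the TMM-scaled library; SD, n = 3) with auxin and 50.1 ± 2.64 CPM without in DIS3-AID cells, against 93.1 ± 3.21 and 90.5 ± 2.58 CPM in control cells with and without auxin. Summed over 9 colon epithelial markers, cytoplasm had 3413 to 3648 CPM in DIS3-AID cells with auxin and 4336 to 4472 without, against 3506 to 3753 in control cells with auxin and 3699 to 3754 without. Fibroblast markers summed to between 9.75 and 19.1 CPM and blood markers to at most 0.71 CPM in those libraries. GAPDH, ACTB, EEF1A1 and RPLP0, abundant in cytoplasm, summed there to 14240 to 15450 CPM in DIS3-AID cells with auxin and 18180 to 18380 without, against 19160 to 20850 in control cells with auxin and 19620 to 20240 without. The part of these shifts in the results was not tested.

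The counts appeared to cover each gene from its first to its last base, introns included, on its own strand. Where a feature lay within another on the same strand and shared no exon with it, the outer feature had no fewer counts than the inner one in 157 of 157 pairs. On opposite strands this held for 122 of 253 pairs. A read thus appeared to be counted for every feature it overlapped. Of the 156 members, 68 overlapped another feature on their strand, and for 54 such a partner held at least 10% of the member's own count. For several named members the partner is given beside the result. Others also shared counts with a partner on their strand, given as the partner's count in percent of the member's: ZNF763 (16590, ENSG00000267179), ZNF700 (102.2, the same feature), ZNF544 (178.6), ZNF493 (99.2), ZNF90 (97.8), ZNF20 (92.4, ZNF625-ZNF20), ZNF577 (70.3, ZNF649), ZNF358 (40.8), ZNF254 (38.5), ZNF83 (20.5) and ZNF616 (11.3). Their values and those of their partners cannot be told apart in full. Sequence was also compared with the transcripts of all other genes. These include features that overlap a member at its own locus, so the share is not that of paralogs alone. A median of 2.4% of a member's 50-base stretches recurred there, 98 members were under 5%, and 16 were over 20%.

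The members' coding models (GENCODE 29, hg38) held a median of 12 C2H2 fingers, and ranged between 0 by the pattern in ZNF738, with 137 residues, and 31 in ZNF91, with 1191 residues. ZNF91 is known as a repressor of SVA retrotransposons. A KRAB-like stretch was found in 86 models and not in 70. The count depends on the pattern: a wider one, added after the values were seen, matched 119 and not 37. The members lay 50 on the short arm and 106 on the long arm, between ZNF554 at chr19:2819874-2835773 and ZNF446, which ended at base 58481230. RefSeq promoters (GRCh38.p14, 250 bases before to 50 after the start) matched 138 members, with a median GC content of 61.0% and a median of 21.5 CG dinucleotides, against 58.7% and 14 over all 35116 promoters. A CG, which reads the same on both strands, was present in 138 of these 138 promoters, and in 96.0% of all promoters.

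A few sequences stand for the members on which the results turn. The promoters of ZNF497 and ZNF555, which had the largest rise and the largest fall past the threshold after auxin in DIS3-AID cytoplasm, and of ZNF615 and ZNF432, which were chosen after their values were seen as the members lowest in the clone, are given 5′ to 3′ on the gene's strand with every CG in capitals.
ZNF497: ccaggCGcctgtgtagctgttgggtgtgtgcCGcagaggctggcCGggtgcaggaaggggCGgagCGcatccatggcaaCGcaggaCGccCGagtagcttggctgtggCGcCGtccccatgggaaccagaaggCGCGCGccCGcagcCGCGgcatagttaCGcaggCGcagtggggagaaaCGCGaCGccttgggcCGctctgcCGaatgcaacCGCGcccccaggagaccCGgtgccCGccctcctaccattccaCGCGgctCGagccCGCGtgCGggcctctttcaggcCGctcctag
ZNF555: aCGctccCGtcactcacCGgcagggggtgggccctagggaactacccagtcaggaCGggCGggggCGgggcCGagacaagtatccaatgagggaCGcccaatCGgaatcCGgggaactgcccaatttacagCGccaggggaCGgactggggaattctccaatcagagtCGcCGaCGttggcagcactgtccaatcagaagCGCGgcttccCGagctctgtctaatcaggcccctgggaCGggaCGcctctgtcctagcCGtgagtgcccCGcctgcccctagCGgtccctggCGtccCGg
ZNF615: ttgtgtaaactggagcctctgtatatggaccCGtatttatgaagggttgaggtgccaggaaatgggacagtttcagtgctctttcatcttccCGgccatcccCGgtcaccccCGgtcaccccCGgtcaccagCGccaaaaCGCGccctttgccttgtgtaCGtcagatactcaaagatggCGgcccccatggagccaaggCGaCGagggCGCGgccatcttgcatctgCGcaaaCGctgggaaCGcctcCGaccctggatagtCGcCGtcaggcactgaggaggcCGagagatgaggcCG
ZNF432: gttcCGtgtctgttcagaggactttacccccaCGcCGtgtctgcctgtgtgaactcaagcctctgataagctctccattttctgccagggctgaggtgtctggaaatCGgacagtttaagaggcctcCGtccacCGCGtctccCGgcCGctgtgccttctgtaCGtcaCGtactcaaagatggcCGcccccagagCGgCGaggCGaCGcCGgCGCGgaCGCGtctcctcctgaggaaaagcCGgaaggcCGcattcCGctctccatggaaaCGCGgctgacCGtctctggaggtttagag
They lie at chr19:58362702-58363001 (minus strand), chr19:2841225-2841524 (plus), chr19:52008162-52008461 (minus) and chr19:52048789-52049088 (minus). They hold 34, 25, 22 and 27 CG dinucleotides, all above the median of all promoters. The start of ZNF432 in RefSeq falls inside the longer GENCODE span of that gene, chr19:52031379-52095738. The next 2 lines, also chosen after the values were seen, show the bases that code for 1 finger in each of ZNF615 (chr19:51994314-51994376) and ZNF432 (chr19:52034914-52034976), both on the minus strand, with the codons of the 2 cysteines and 2 histidines in capitals.
ZNF615 finger: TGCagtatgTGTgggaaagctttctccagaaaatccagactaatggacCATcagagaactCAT
ZNF432 finger: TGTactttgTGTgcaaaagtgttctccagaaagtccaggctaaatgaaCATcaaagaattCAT
Both stretches are 63 bases long and 49 of those bases are identical.

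Levels in untreated control cytoplasm, per kilobase of exon, spanned 0.0292 to 42.6 CPM per kb with a median of 1.78. Since introns appeared to be counted as well, values per exon kilobase overstate the mature RNA of genes with much intronic signal. ZNF146, a protein made almost only of fingers, was highest at 43.0, 43.6 and 41.2 CPM per kb in the 3 libraries. ZNF581 followed with 33.4 ± 1.23, ZNF121 with 24.1 ± 0.582, ZNF787 with 13.4 ± 0.682 and ZNF580 with 13.3 ± 0.453 CPM per kb (SD, n = 3). The levels of ZNF787, ZNF580 and the next gene in order, ZNF428 (13.1 ± 0.477), did not differ beyond their spread. ZNF580 and ZNF581 overlap on the same strand and share reads. The lowest were ZNF90 (0.0292), ZNF461 (0.0379), ZNF233 (0.0410), ZNF493 (0.0482) and ZNF763 (0.0487 CPM per kb), where neighbours in this order did not differ beyond their spread.

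After 1 h of auxin, 5 of 156 members rose and 16 fell in DIS3-AID cytoplasm (edgeR quasi-likelihood test, Benjamini-Hochberg adjusted p under 0.05). That is 3.21% and 10.3% of the members, against 21.1% and 13.2% of all features tested. Among all protein-coding genes tested 7.25% rose and 20% fell, and of the 201 zinc finger genes off chromosome 19, 19 rose and 21 fell. The members' median log2 change was -0.09, against -0.05 over all features. The 5 that rose were ZNF497, ZNF599, ZNF565, ZNF112 and ZNF837, and all of them lie on the minus strand of the long arm. Of the 156 members, 65 lie on the minus strand and 106 on the long arm. ZNF497 and ZNF837 are neighbours, 4770 bp apart, and whether position or strand plays a part was not tested. In such bulk libraries fewer cells with an RNA and less of it per cell cannot be told apart.

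ZNF497 (ENSG00000174586.10, chr19:58354357-58362848), with 14 fingers, rose most. Its level was 4.10, 5.20 and 5.32 CPM in DIS3-AID cells with auxin and 2.01, 1.38 and 1.96 CPM without, against 1.32, 1.23 and 1.76 CPM in control cells with auxin and 1.51, 1.51 and 1.99 CPM without. The 3 libraries of DIS3-AID with auxin lay above all 9 others. The log2 change was 1.44 ± 0.16 (SE, adjusted p = 4.76e-07), a 2.72-fold rise. A processed transcript on the same strand, ENSG00000268230, covers 98.9% of this gene's span, held a median of 101.9% of its count and rose alike (1.42, adjusted p = 5.59e-07), so the 2 cannot be told apart. ZNF497-AS1, on the opposite strand, rose as well, to 0.498 ± 0.0349 CPM with auxin against 0.129 ± 0.0357 CPM without (1.95, adjusted p = 1.89e-05).

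ZNF837 (ENSG00000152475.6, chr19:58367618-58381060) lies 4770 bp from ZNF497 on the same strand and has 8 fingers. It had 3.32, 3.76 and 4.01 CPM in DIS3-AID cells with auxin and 2.28, 2.04 and 2.94 CPM without, against 1.35, 1.60 and 1.48 CPM in control cells with auxin and 1.72, 1.59 and 1.93 CPM without. The treated and untreated DIS3-AID libraries did not overlap, and both stood above all control libraries. The rise was 0.61 ± 0.12 on the log2 scale (adjusted p = 0.000748).

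ZNF565 (ENSG00000196357.11, chr19:36182060-36246257), with a KRAB-like stretch and 12 fingers, had 5.80, 5.73 and 5.14 CPM in DIS3-AID cells with auxin and 3.09, 3.46 and 3.60 CPM without, against 3.39, 3.17 and 2.65 CPM in control cells with auxin and 2.92, 3.39 and 3.23 CPM without. Only the group with auxin and degron stood apart, at 0.72 ± 0.10 (log2, adjusted p = 1.14e-05). ZNF146, the member highest per kilobase, lies inside ZNF565 on the opposite strand and did not pass the test (-0.07, adjusted p = 0.375). ZNF565 counts came to 3.13% to 3.28% of those of ZNF146 in DIS3-AID libraries with auxin and 1.70% to 2.13% without, against 1.5% to 1.89% in the 6 control libraries. How much of the ZNF565 count is RNA of ZNF146 read on the wrong strand was not tested.

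ZNF112 (ENSG00000062370.16, chr19:44326555-44367217), with 13 fingers, had 3.19, 3.58 and 3.48 CPM in DIS3-AID cells with auxin and 1.98, 2.52 and 2.10 CPM without, against 2.29, 1.80 and 2.34 CPM in control cells with auxin and 2.83, 3 and 2.7 CPM without. The DIS3-AID groups did not overlap (0.63 ± 0.12 on the log2 scale, adjusted p = 0.000249), while the auxin-treated cells lay only slightly above untreated control cells. A read-through feature on its strand, ENSG00000267173, held 35.2% of its count and rose too (0.98, adjusted p = 4.55e-05). ZNF599 (ENSG00000153896.17, chr19:34758076-34773229), with a KRAB-like stretch and 14 fingers, had 0.435, 0.534 and 0.531 CPM in DIS3-AID cells with auxin and 0.216, 0.375 and 0.216 CPM without, against 0.848, 0.906 and 0.911 CPM in control cells with auxin and 0.755, 0.648 and 0.792 CPM without. Its rise of 0.87 ± 0.23 (log2, adjusted p = 0.00586) thus left it below every control library. No other feature overlaps ZNF599 on its strand.

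**Figure D1:**
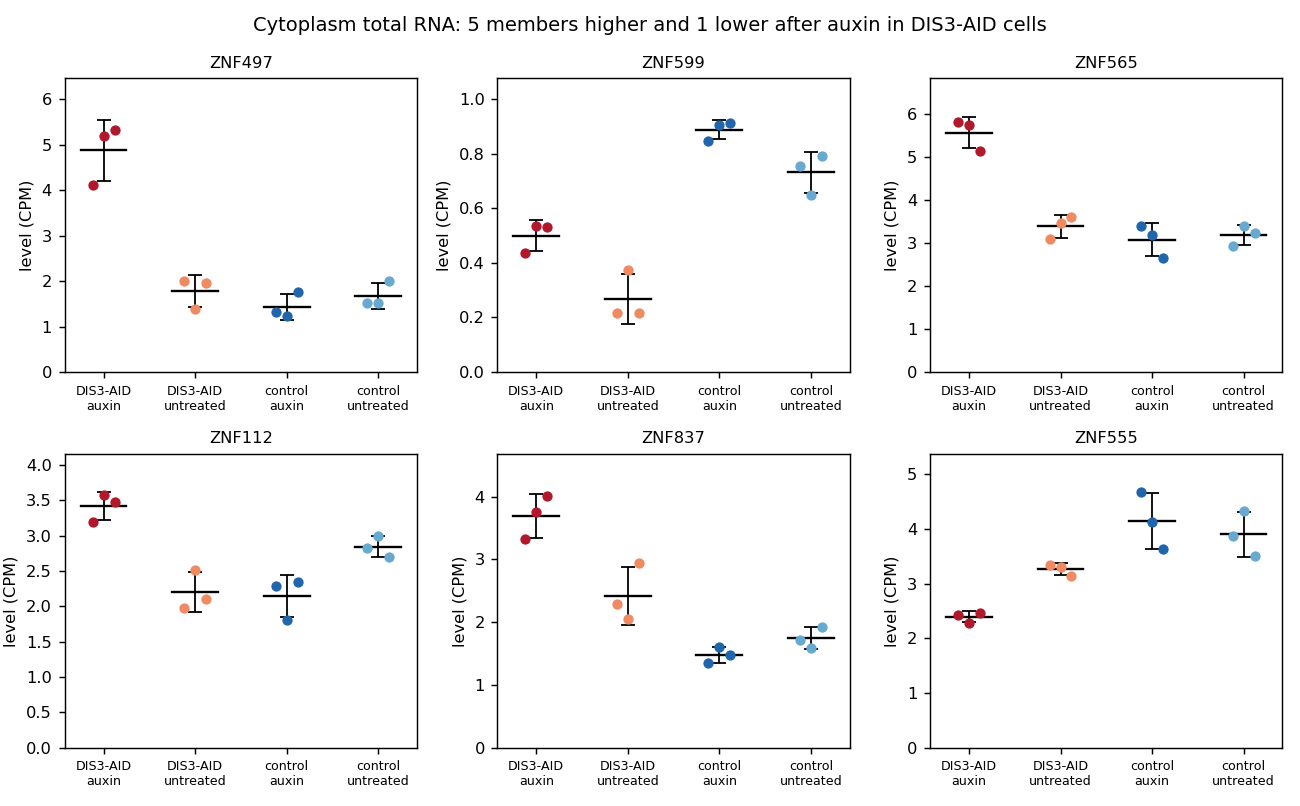
Levels in cytoplasm total RNA (y axes, CPM from 0) of the 5 members that rose and of ZNF555, which had the largest fall past the threshold, after auxin in DIS3-AID cells. Points are libraries, the long line is the mean and the bars are ± 1 SD (n = 3 per group); ZNF497, ZNF565, ZNF112 and ZNF837 are highest in DIS3-AID cells with auxin, while ZNF599 stays below both control groups.

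The 16 falls were small, between -0.15 and -0.44 on the log2 scale. ZNF555 (ENSG00000186300.11), with a KRAB-like stretch and 15 fingers, had the largest of them, with 2.43, 2.28 and 2.47 CPM in DIS3-AID cells with auxin and 3.34, 3.32 and 3.14 CPM without, against 4.68, 4.12 and 3.65 CPM in control cells with auxin and 3.88, 4.33 and 3.50 CPM without. Its groups did not overlap within the DIS3-AID line (-0.44 ± 0.11, adjusted p = 0.00356). ZNF615, with 1 to 10 counts per library in this line, had a lower value that did not pass (-1.54, adjusted p = 0.0504). ZNF274, which is known to bring SETDB1 to the 3′ ends of zinc finger genes, had 5.17, 5.50 and 5.09 CPM with auxin and 6.11, 6.58 and 7.09 CPM without (-0.33 ± 0.08, adjusted p = 0.00233). ZNF160, reported to silence TLR4 in human gut epithelial cells, fell by 0.26 (adjusted p = 0.0106). ZNF444, known as a factor at the SCARF1 promoter of endothelial cells, fell by 0.29 (adjusted p = 0.0235), with 12.9, 11.9 and 14.6 CPM with auxin and 16.1, 14.6 and 17.7 CPM without, ranges that overlap narrowly near 14.6.

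The other falls among the 10 largest were ZNF222 (-0.36), ZNF100 (-0.35), ZNF14 (-0.32), ZNF614 (-0.29), ZNF548 (-0.28) and ZNF225 (-0.27), with adjusted p between 0.00907 and 0.0443. The read-through feature ENSG00000267022 held 102.9% of the count of ZNF222 and did not pass itself (-0.29, adjusted p = 0.0873). ZNF548 overlaps 3 such features, which cover 66.5%, 67% and 99.7% of its span. Of these, ENSG00000268133 (-0.20, adjusted p = 0.13) and ENSG00000268533 (-0.11, adjusted p = 0.17) did not pass, and ENSG00000269533 did (-0.20, adjusted p = 0.0476). The members' falls depended on single libraries and on the scaling. Their number was 6 to 10 without DIS3-AID auxin library 2 or 3 or any 1 of the 3 untreated DIS3-AID libraries (6, 9, 7, 9 and 10). With library sizes alone, with no TMM factor, 10 members rose and 2 fell, and of the 10 named falls ZNF555 and ZNF274 kept their calls. The median change of all features then moved to 0.05, and higher calls made up 89.1% of all calls over all features, against 61.5% with TMM. The 5 rises kept their calls there, with the other tool and filter tried, and without each library in turn.

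In control cytoplasm the same auxin moved no member past the threshold (edgeR, 0 of 156; 0.0478% of all features passed, 0.0217% higher and 0.0261% lower). At an unadjusted p under 0.05 there were 14 members, and DESeq2 called 1 fall. When the auxin effect in DIS3-AID cells was set against that in control cells, 7 members had a higher effect and 3 a lower one, beside 16.1% and 3.31% of all features. ZNF497 (1.66 ± 0.23, adjusted p = 2.23e-05), ZNF112 (1.04 ± 0.16), ZNF837 (0.85 ± 0.19) and ZNF565 (0.76 ± 0.14) passed this test as well. ZNF599 did not (0.59, adjusted p = 0.165). ZNF555 (-0.54) and ZNF274 (-0.46) had lower effects in DIS3-AID cells. These differences share the DIS3-AID libraries with the comparison above and are no independent support for it. The lower calls numbered 1 to 7 with a library left out: ZNF555 lost its call without DIS3-AID auxin library 2 or control auxin library 1, and ZNF766, the third of them, without any 1 of 6 libraries and with library sizes alone.

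On chromatin, auxin in DIS3-AID cells raised 7 of 154 members tested and lowered 15, against 11% of all features higher and 9.54% lower. The members' median change was -0.03 (log2). Both counts rested on single libraries: without DIS3-AID auxin library 1, 2 or 3 the rises were 4, 3 and 6 and without untreated library 2 or 3 they were 4 and 2, while the falls were 6 and 5 without auxin library 2 or 3 and 8 and 6 without untreated library 2 or 3. The rises were ZNF709 (0.36 ± 0.09), ZNF558 (0.36 ± 0.08), ZNF576 (0.31), ZNF787 (0.28), ZNF526 (0.23), ZNF580 (0.20) and ZNF581 (0.18). ZNF558, known in human neural progenitors as a regulator of the mitophagy gene SPATA18, had 15.9, 16.8 and 17.5 CPM with auxin and 13.8, 12.8 and 12.5 CPM without in DIS3-AID cells, against 15.1, 13.1 and 11.9 CPM and 13.7, 13.2 and 12.8 CPM in control cells with and without auxin. Its DIS3-AID groups did not overlap (adjusted p = 0.00303). ZNF709 lies almost wholly within ENSG00000196826, a feature with 763.6% of its count that covers 76.38% of its exon bases. The 78.9% of its 50-base stretches that recur in other genes' transcripts include that overlap. ZNF580 and ZNF581 share reads with each other and with CCDC106, and ZNF576 with SRRM5.

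Among the falls on chromatin, ZNF177 stood at 1.00, 1.13 and 0.920 CPM with auxin and 1.61, 1.78 and 1.71 CPM without in DIS3-AID cells (-0.74 ± 0.12, adjusted p = 0.000302), against 1.81, 1.82 and 1.79 CPM with auxin and 3.06, 3.46 and 3.09 CPM without in control cells (-0.81 ± 0.10, adjusted p = 3.85e-05). Auxin lowered it in both lines. It lies wholly within the read-through gene ZNF559-ZNF177, which held 1305% of its count, so its count is uncertain. The 86.8% of its stretches that recur in other genes' transcripts include this overlap, which covers 90.77% of its exon bases. ZNF846 (-0.50), ZNF837 (-0.48), ZNF555 (-0.48), ZNF554 (-0.44), ZNF547 (-0.37), ZNF814 (-0.29), ZNF101 (-0.28), ZNF888 (-0.26) and ZNF468 (-0.26) followed, with adjusted p between 0.00158 and 0.0311. ZNF555 had 1.95, 2.17 and 2.13 CPM with auxin and 2.86, 2.82 and 3.04 CPM without, with no overlap. ZNF814, ZNF888, ZNF468 and ZNF547 each share a strand with a feature of larger count.

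No member passed as higher in both fractions, ZNF264 and ZNF555 were lower in both, and ZNF837 was higher in cytoplasm and lower on chromatin. ZNF837 lost its chromatin call without DIS3-AID auxin library 2 or 3 or untreated DIS3-AID library 2 or 3, and its ranges there overlap slightly. The 2 lower in both are 12.5% of the 16 cytoplasmic and 13.3% of the 15 chromatin falls. The same overlap was not counted over all features. ZNF497, at 3.99, 3.90 and 4.06 CPM on chromatin with auxin and 3.58, 3.84 and 3.69 CPM without, had a log2 change of 0.11 there (adjusted p = 0.454). ZNF565 (0.17, adjusted p = 0.207), ZNF112 (-0.10, adjusted p = 0.524) and ZNF599 (-0.41, adjusted p = 0.407) did not pass either.

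The difference between the fractions' responses was tested itself, in 1 fit over all 24 total RNA libraries. It was higher on chromatin for 55 members and lower for 7, beside 22.1% and 11% of all features, with a median of 0.26 (log2). The 7 lower were ZNF497 (-1.16 ± 0.17, adjusted p = 2.18e-06), ZNF599 (-1.10 ± 0.40), ZNF837 (-0.91 ± 0.19), ZNF846 (-0.72), ZNF112 (-0.55), ZNF554 (-0.48) and ZNF565 (-0.37, adjusted p = 0.0431). The 5 members that rose in the cytoplasm are among them, but this difference uses the same DIS3-AID cytoplasm libraries that chose those 5, so it is no independent support. ZNF565 lost this call without any 1 of 8 of the 12 libraries, ZNF599 without 7, ZNF554 without 3 and ZNF846 without 1. The lower calls numbered 4 without untreated DIS3-AID chromatin library 2 and 3 without untreated DIS3-AID cytoplasm library 1, and the higher calls 36 without untreated DIS3-AID chromatin library 3. The 8 highest were ZNF628 (0.92), ZNF579 (0.75), ZNF709 (0.68), ZNF813 (0.66), ZNF787 (0.65), ZNF181 (0.61), ZNF558 (0.60) and ZNF222 (0.59). The higher calls rest on the scaling: with library sizes alone 0 members were higher and 17 lower, as the median of all features moved to -0.17, against 0.16 with TMM.

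**Figure D2:**
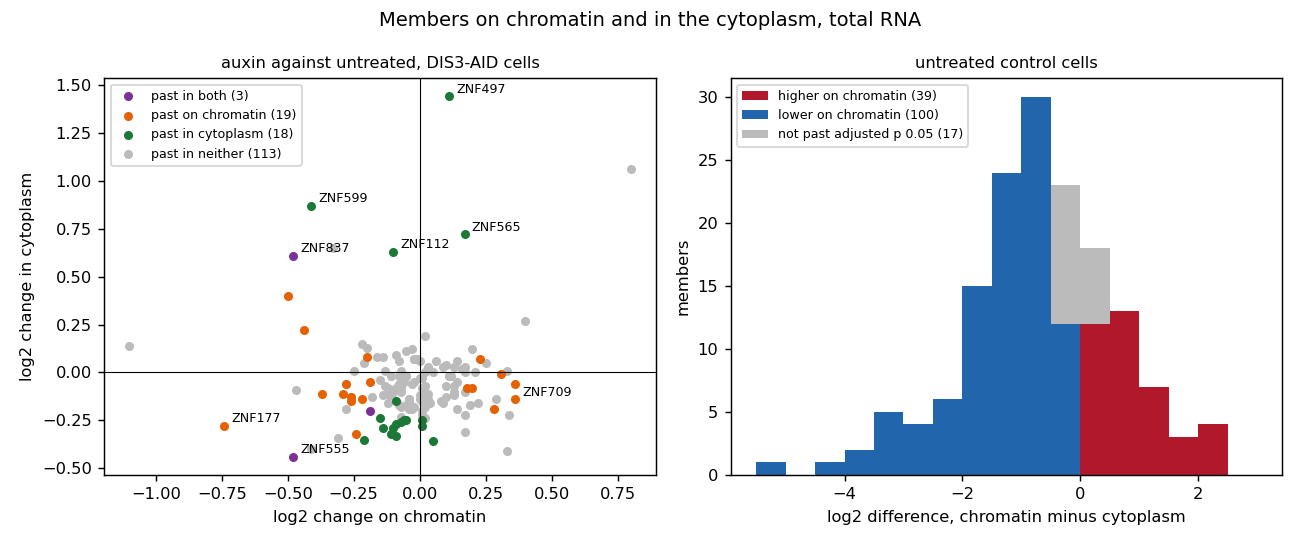
Left, log2 change after auxin in DIS3-AID cells on chromatin (x axis) against that in cytoplasm (y axis) for 153 members (ZNF615, with 1 to 10 counts per library in this line, is left out); right, number of members (y axis) by log2 difference between chromatin and cytoplasm in untreated control cells (x axis). On the chromatin axis the 5 cytoplasmic rises lie between -0.48 (ZNF837) and 0.17 (ZNF565), and 100 of 156 members are lower on chromatin.

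In control cells, auxin raised 26 members on chromatin and lowered 2, beside 9.02% and 7.97% of all features, and 137 of 940 other coding genes of the chromosome rose while 47 fell. The members' median change was 0.10. The rises were 15, 17 and 13 without control auxin library 1 and untreated control libraries 2 and 3, in that order, and the falls 1 without untreated control library 3. ZNF709 had 4.75, 5.25 and 4.52 CPM with auxin and 3.07, 3.1 and 3.17 CPM without (0.64 ± 0.09, adjusted p = 0.000139). ZNF837 (0.63 ± 0.15), ZNF628 (0.53 ± 0.12), known in mouse for its part in sperm formation, ZNF784 (0.51 ± 0.16) and ZNF480 (0.47 ± 0.09) followed. ZNF576 fell by 0.33. These shifts occurred with no degron on DIS3.

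Set against control cells, the auxin effect on chromatin of DIS3-AID cells was higher for 4 members and lower for 25, beside 8.54% and 9.2% of all features. ZNF837 (-1.12 ± 0.21), ZNF784 (-0.98 ± 0.23), ZNF554 (-0.79 ± 0.13), ZNF468 (-0.65 ± 0.10) and ZNF846 (-0.60 ± 0.15) were the lowest, and ZNF576 (0.65 ± 0.13), ZNF558 (0.34), ZNF580 (0.30) and ZNF581 (0.27) the 4 higher. The higher calls numbered 1 to 4 with a library left out: ZNF558 lost its call without any 1 of 9 of the 12 libraries, ZNF580 without 6 and ZNF581 without 9, and all 3 with library sizes alone. ZNF837 shows how both lines add to such a value: it had 3.90, 3.12 and 2.81 CPM with auxin and 3.86, 5.48 and 4.54 CPM without in DIS3-AID cells, against 4.2, 3.4 and 4.18 CPM with auxin and 2.7, 2.81 and 2.18 CPM without in control cells. Its DIS3-AID ranges overlap slightly, and its control ranges do not. The lower calls numbered 15, 13 and 15 without DIS3-AID auxin library 2 or 3 or untreated control library 3.

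The lines differed before any auxin. In cytoplasm, 56 of 156 members were lower in the untreated DIS3-AID clone than in untreated control cells and 3 were higher, with a median of -0.18 (log2). Lower calls thus covered 35.9% of the members, against 12.4% of all features, where 9.67% were higher. They covered 16.9% of the 201 zinc finger genes off chromosome 19 and 13.3% of 935 other coding genes of chromosome 19. Without untreated control library 2 the lower calls were 37 and the higher 1. The lower calls included 31 of 86 members with a KRAB-like stretch and 25 of 70 without, but 49 of 119 with and 7 of 37 without by a wider KRAB-like pattern, added after the values were seen. They included 18 of 50 on the short arm and 38 of 106 on the long arm, 30 of 78 below the median count and 26 of 78 above it. Among the 56, 7 were lower by over 2-fold. ZNF615, ZNF419 and ZNF233 met the minimum of 10 counts through the control line alone (means of 4.67, 9.67 and 5.67 counts in the 6 DIS3-AID libraries), as did ZNF763, so their differences are descriptions. Of the 152 members at or above the minimum in both lines, 53 were lower and 3 higher.

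ZNF615 (ENSG00000197619.13, chr19:51991332-52008230, minus strand), with a KRAB-like stretch and 19 fingers, was nearly absent from the clone. It had 8, 10 and 3 raw counts in untreated DIS3-AID cytoplasm against 205, 174 and 157 in untreated control cytoplasm, which is 0.0909, 0.121 and 0.0404 CPM against 1.72, 1.73 and 1.94 CPM (-4.37 ± 0.24, adjusted p = 8.85e-10, 20.6-fold lower). With auxin it had 1, 4 and 2 counts in the clone against 250, 167 and 145 in control cells. On chromatin it had 4, 4 and 1 counts in the untreated clone against 109, 64 and 132 in untreated control cells (-4.63 ± 0.26, adjusted p = 2.71e-10). In both fractions and under both treatments every library of the clone lay far below every control library. Since ZNF615 met the count minimum through the control line alone, this difference is a description.

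ZNF432 (ENSG00000256087.6, minus strand), with a KRAB-like stretch and 16 fingers, was the next lowest, at 0.136, 0.157 and 0.121 CPM in the untreated clone against 0.848, 0.857 and 0.829 CPM in untreated control cytoplasm (-2.59 ± 0.22, adjusted p = 2.38e-07). On chromatin its difference was -1.15 ± 0.27 (adjusted p = 0.00351). The genes are 23149 bp apart with ZNF614 between them. ZNF614 was not past the threshold in either fraction, at -0.16 in cytoplasm (adjusted p = 0.247) and 0.11 on chromatin (adjusted p = 0.388). On the other side of ZNF615, ZNF350, a repressor known to work with BRCA1, was lower in cytoplasm (-0.69 ± 0.11, adjusted p = 0.000151), and its chromatin value was -0.11 (adjusted p = 0.533). ZNF616, beyond ZNF432, did not pass (-0.15, adjusted p = 0.217).

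**Figure D3:**
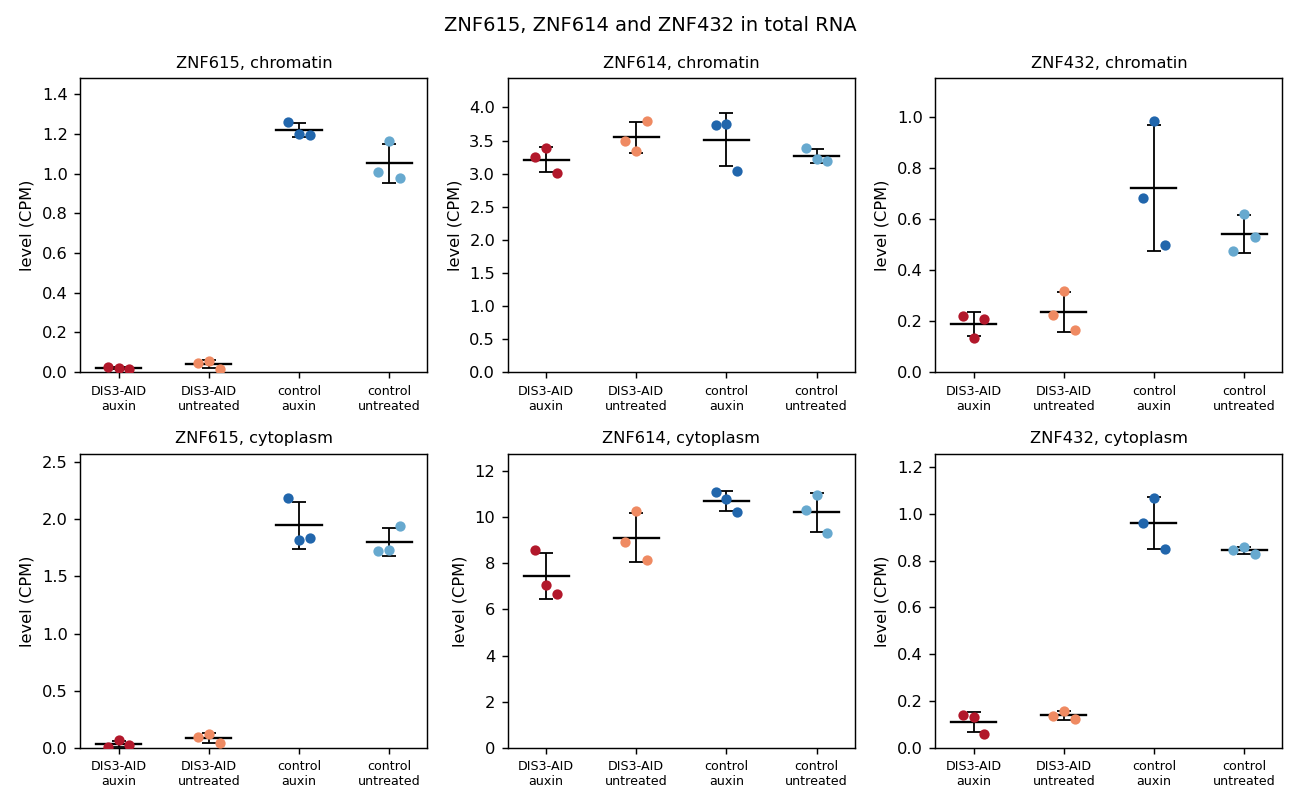
Levels (y axes, CPM from 0) of ZNF615, its neighbour ZNF614 and ZNF432 on chromatin (upper row) and in cytoplasm (lower row); points are libraries, the long line is the mean and the bars are ± 1 SD (n = 3 per group). ZNF615 lies near 0 in both DIS3-AID groups of both fractions, ZNF432 lies below every control library, and ZNF614 in the untreated clone overlaps untreated control cells.

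ZNF419 (0.0909, 0.218 and 0.0944 CPM in the untreated clone against 0.453, 0.558 and 0.421 CPM in untreated control cytoplasm), known as the source of a minor histocompatibility antigen, was lower by 1.82 ± 0.31 on the log2 scale. It shares its whole count with the feature ENSG00000268107. ZNF772 was at -1.56 ± 0.29, with ENSG00000268163 holding 111.5% of its count. ZNF599, at -1.43 (adjusted p = 8.32e-05), and ZNF20, at -1.09 (adjusted p = 0.00543), complete the 7 with ZNF233. ZNF233, at -1.79 ± 0.56 (adjusted p = 0.0293), is the member with the lowest mean count, and lost its call without untreated DIS3-AID library 1 or 3 or untreated control library 2 or 3. Like ZNF419, ZNF233 met the count minimum through the control line alone, so both differences are descriptions. The 3 higher were ZNF813 (0.68 ± 0.17), ZNF837 (0.47 ± 0.13) and ZNF875 (0.23 ± 0.07), formerly HKR1. ZNF813 contains the processed pseudogene TPM3P6, which held 59.3% of its count and was itself higher (0.82, adjusted p = 0.0084).

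On chromatin the lines differed in both directions, with 29 of 154 members higher and 33 lower in the clone, beside 15.2% and 17.4% of all features, and a median of 0.01. Without untreated DIS3-AID library 2 the higher calls were 19. ZNF837 (0.87 ± 0.14), ZNF627 (0.59 ± 0.07), ZNF709 (0.54 ± 0.09), ZNF114 (0.53 ± 0.10) and ZNF554 (0.47 ± 0.09) were the highest. ZNF233 (-1.53 ± 0.36), ZNF419 (-1.18 ± 0.24) and ZNF599 (-0.99 ± 0.25) stood with ZNF615 and ZNF432 among the lowest. Of the lower calls, 25 were shared with the cytoplasm, which is 44.6% of the 56 there and 75.8% of the 33 here. Across the 154 members the 2 fractions' differences, taken from separate libraries of the same 2 lines, had a Pearson r of 0.88, and of 0.76 without ZNF615. The second value still includes ZNF419, ZNF233 and ZNF763, which met the count minimum through the control line alone. ZNF615, ZNF419 and ZNF233 are also among the 25 shared lower calls, so the overlap and r are descriptions. Neither was taken over all features, so whether they are particular to the members is not known. ZNF566, ZNF700, ZNF708 and ZNF714 were lower in cytoplasm (-0.38, -0.21, -0.24 and -0.22) yet higher on chromatin (0.29, 0.16, 0.16 and 0.26).

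**Figure D4:**
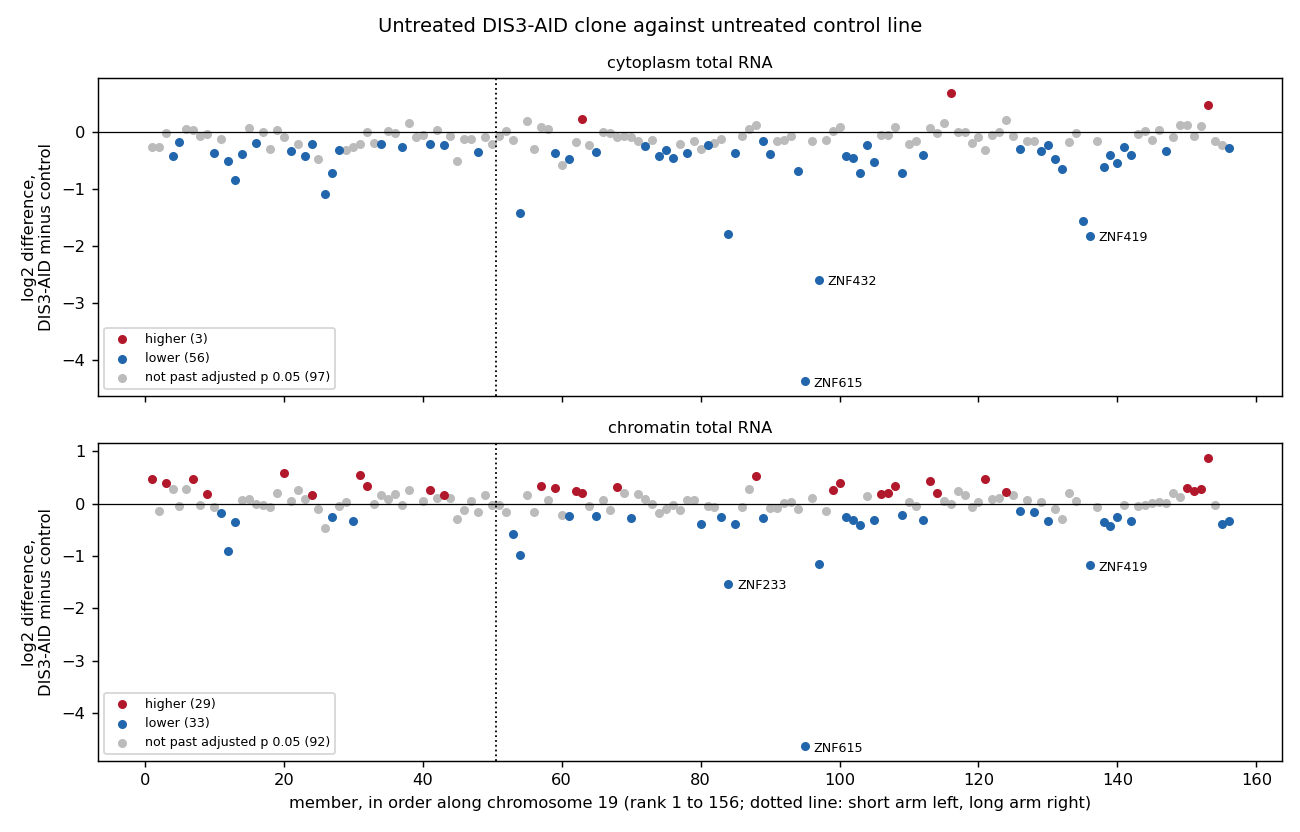
Log2 difference of untreated DIS3-AID minus untreated control cells (y axes) for members in order along chromosome 19 (x axis, rank 1 to 156), in cytoplasm (upper panel) and on chromatin (lower panel); red, higher, blue, lower at adjusted p under 0.05, grey, neither. Lower members lie on both arms in cytoplasm, with none among the 9 between ZNF628 and ZNF444, and 3 members are higher, while chromatin has 29 higher and 33 lower, and ZNF615 is lowest in both panels.

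By cluster (members under 1 Mb apart), the 31 members between ZNF264 and ZNF446 had 14 lower in the clone's cytoplasm, the 27 between ZNF175 and ZNF813 had 11, and the 9 between ZNF628 and ZNF444 had 0, beside the 12.4% of all features. In that last group, at 55.48 to 56.16 Mb, all 9 were lower on chromatin than in cytoplasm of untreated control cells, with a median of -2.35, beside 44% of all features lower and 46.2% higher. The 10 members between ZNF565 and ZNF573 had 7 higher on chromatin and a median of 0.49. These are descriptions of clusters and were not tested.

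In polyA RNA only 99 members had a row, and 88 could be tested. A row was present for 0 of the 43 members with coding transcript models alone and for 99 of the other 113, so polyA values appear to cover their non-coding models and are not set against total RNA in level. ZNF565 was the only member past the threshold after auxin in DIS3-AID cells (1 of 88 higher and 0 lower, beside 13.2% and 3.88% of all features; 9 members had an unadjusted p under 0.05). It had 1.27, 1.63 and 1.3 CPM with auxin and 0.782, 0.482 and 0.667 CPM without, against 0.783, 0.522 and 0.654 CPM and 0.822, 1.11 and 0.933 CPM in control cells with and without auxin. Its rise of 1.12 ± 0.27 (log2, adjusted p = 0.0024) came from libraries other than those of total RNA. Their titles and numbers match, and whether they hold the same RNA preparations is not known. The effect on ZNF565 also exceeded that in control cells (1.66 ± 0.38, adjusted p = 0.00644), where its value was -0.54 (adjusted p = 0.949). By that test 5.84% of all features passed, 4.85% higher and 0.985% lower. ZNF146 was at 0.16 (adjusted p = 0.153) after auxin in DIS3-AID polyA RNA. ZNF497, ZNF112 and ZNF837 have no row in polyA RNA, and ZNF599 was at -0.15 (adjusted p = 0.889).

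Auxin in control cells moved no member in polyA RNA (edgeR, 0 of 88; 5 at an unadjusted p under 0.05; DESeq2 also 0), beside 0.048% of all features past it, 0.012% higher and 0.036% lower. The untreated clone had 14 lower and 2 higher members, against 5.65% and 6.21% of all features. ZNF419 (-1.87 ± 0.39, adjusted p = 0.00149), ZNF599 (-1.15 ± 0.38), ZNF20 (-0.89 ± 0.27), ZNF567 (-0.68 ± 0.19) and ZNF83 (-0.66 ± 0.11) were the lowest. ZNF83 had 5.58, 6.68 and 6.52 CPM in the untreated clone against 10.2, 9.69 and 9.77 CPM in untreated control cells. ZNF714 (0.36) and ZNF544 (0.21) were higher. With DESeq2, ZNF599, ZNF20 and ZNF714 lost their calls. ZNF20 and ZNF714 also lost them without any 1 of 5 libraries, ZNF599 and ZNF544 without 4 and ZNF567 without 2. Left-out libraries brought the lower calls to between 7 and 12, and the higher calls to 0 without any 1 of the 3 untreated clone libraries or untreated control library 2. Of the 14 lower, 10 were also lower in cytoplasm total RNA, which is 71.4% of these 14. Of the 56 lower in cytoplasm 33 could be tested in polyA RNA, so the shared calls are 30.3% of those 33. This overlap was not counted over all features either. ZNF714 was lower in cytoplasm total RNA and higher here.

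Relative to the other RNA of each fraction, more members were lower than higher on chromatin. In untreated control cells 39 members were higher on chromatin and 100 lower than in cytoplasm, against 46.2% and 44% of all features (90.2% in either direction) and 36.1% and 55.8% of protein-coding genes. The median was -0.72 (log2), with levels scaled within this fit. ZNF461 (2.41 ± 0.23), ZNF235 (2.18 ± 0.07), ZNF846 (2.10), ZNF254 (2.01), ZNF875 (1.93), ZNF738 (1.65), ZNF112 (1.55) and ZNF577 (1.37) were highest on chromatin. ZNF235 had 44.5, 43.4 and 45.4 CPM on chromatin against 9.39, 9.88 and 10.1 CPM in cytoplasm.

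ZNF358 had 0.731, 0.565 and 0.516 CPM on chromatin against 20.4, 22 and 22 CPM in cytoplasm (-5.14 ± 0.13, adjusted p = 1.9e-30), the widest gap toward the cytoplasm. ZNF579 (-4.25), ZNF85 (-3.97), ZNF628 (-3.53), ZNF574 (-3.50), ZNF296 (-3.44), known in mouse for its part in reprogramming to pluripotency, ZNF524 (-3.38) and ZNF100 (-3.38) followed. Gene length moved with this order: the 39 members higher on chromatin had a median span of 38270 bp and the 100 lower 17280 bp, while their median exon lengths were 5210 and 4966 bp and their median finger counts 13 and 11. The 8 highest had a median span of 48860 bp, and the 8 lowest 6946 bp. The part of intronic counts in these differences was not tested. With library sizes alone 66 members were higher and 68 lower, as the median of all features moved to 0.76, against 0.10 with TMM.

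Of 23 cofactors of KRAB proteins that could be tested, 0 rose and 8 fell after auxin in DIS3-AID cytoplasm, between -0.12 for RBBP7 and -0.31 for CHD3, and TRIM28 (-0.11, adjusted p = 0.16) and SETDB1 (0.01, adjusted p = 0.846) did not pass. Over all features 21.1% rose and 13.2% fell. The cofactors all encode proteins, so the shares over protein-coding genes, given with the members' auxin results in cytoplasm, are the nearer background. In the untreated clone's cytoplasm 5 were lower, namely RBBP4 (-0.37), CBX1 (-0.28), MTA2 (-0.24), RBBP7 (-0.21) and HDAC1 (-0.16), which encode chromatin remodelling, heterochromatin and deacetylase subunits, and 0 were higher, beside 12.4% and 9.67% of all features. Of 6 other C2H2 genes of chromosome 19 that could be tested, ZSCAN5A rose after auxin in DIS3-AID cytoplasm (0.19) and on chromatin (0.21), and ZFP14 (-0.50) and ZFP30 (-0.48) were lower in the clone's cytoplasm.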

How the data were processed

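The authors deposited raw counts per feature for 36 libraries, in whole numbers. Per the submitters' processing notes, STAR 2.7.3a, Cufflinks 2.2.1, featureCounts 2.0.0 and the hg38 build were used; their settings are not given in the sources used here. Identifiers were matched to GENCODE 29, of which 55008 matched exactly, 2828 without the version and 338 not at all. The other 1433 features are loci named XLOC, with no GENCODE identifier. Members and lists were chosen with earlier results of these data known.

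Each data set of 12 libraries was fitted with edgeR 4.0.16 (R 4.3.3, limma 3.58.1; TMM scaling, filterByExpr with a minimum count of 10, robust quasi-likelihood, 1 mean per group), and the fraction comparisons on all 24 total RNA libraries. P-values were Benjamini-Hochberg adjusted over all features tested and called under 0.05. The model was also run on simulated data in which every feature had the same spread beyond sampling noise. That run does not speak for the spread of these libraries. Named genes were the 10 highest and 10 lowest called after auxin in DIS3-AID cytoplasm and chromatin, 8 and 8 for the fraction comparisons, 5 and 5 elsewhere, and the 5 highest and 5 lowest levels; others are described as neighbours or were chosen after their values were seen. Alternatives were library sizes alone, no filter, DESeq2 1.42.0, a replicate block and leaving out each library. Finger and KRAB-like counts come from translated GENCODE coding models, in place of a protein table. Replicate libraries differed beyond sampling noise, so none was merged. Python 3.11.15, pandas 2.3.3, numpy 2.4.6 and matplotlib 3.10.9 were used.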

Additional observations from a re-analysis of the deposited data

Results flagged for a closer look

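The response to auxin differed between the DIS3-AID and control lines by the interaction test. In DIS3-AID cytoplasm the effect was higher for 7 members and lower for 3, beside 16.1% and 3.31% of all features. The log2 differences were 1.66 for ZNF497, 1.04 for ZNF112, 0.85 for ZNF837, 0.76 for ZNF565, 0.53 for ZNF234, -0.54 for ZNF555, -0.46 for ZNF274 and -0.31 for ZNF766. ZNF234 changed by 0.12 in DIS3-AID cells and by -0.41 in control cells, neither past the threshold. On chromatin 4 members had a higher and 25 a lower effect, beside 8.54% and 9.2% of all features. The values there were 0.65 for ZNF576, 0.34 for ZNF558, 0.30 for ZNF580, 0.27 for ZNF581, -1.12 for ZNF837, -0.98 for ZNF784, -0.79 for ZNF554, -0.65 for ZNF468 and -0.60 for ZNF846. In polyA RNA 1 member was higher and 0 lower by edgeR, beside 4.85% and 0.985% of all features, with 1.66 for ZNF565. At an unadjusted p under 0.05 there were 7 members, and DESeq2 also gave 0 lower.

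The response of DIS3-AID cells also differed between chromatin and cytoplasm. On chromatin it was higher for 55 members and lower for 7, beside 22.1% and 11% of all features. The values were 0.92 for ZNF628, 0.75 for ZNF579, 0.68 for ZNF709, 0.66 for ZNF813, 0.65 for ZNF787, 0.61 for ZNF181, 0.60 for ZNF558 and 0.59 for ZNF222, and these 8 calls are lost with library sizes alone. They were -1.16 for ZNF497, -1.10 for ZNF599, -0.91 for ZNF837, -0.72 for ZNF846, -0.55 for ZNF112, -0.48 for ZNF554 and -0.37 for ZNF565. ZNF837 thus had a higher effect in cytoplasm and a lower one on chromatin of the same line. Its fall on chromatin lost its call without any 1 of 4 libraries.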

How the results depend on the processing

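Counts are given as members higher and lower. With library sizes alone, auxin in DIS3-AID cells gave 10 and 2 in cytoplasm and 4 higher on chromatin, the interaction 1 and 39 on chromatin and 2 higher in polyA RNA, chromatin against cytoplasm 66 higher, and the response difference 0 and 17. With no filter, auxin in control cytoplasm gave 4 lower, the cytoplasmic interaction 5 lower, auxin in DIS3-AID polyA RNA 2 and 1, and the polyA clone comparison 0 higher. DESeq2 gave 1 lower for auxin in control cytoplasm, 5 higher for the cytoplasmic clone comparison, 7 lower for the cytoplasmic interaction and 1 higher for the polyA clone comparison. The cause was not tested. Same-numbered libraries did not all correlate above 0.1 in any pair of groups, so their numbers are not taken as pairs; the replicate block gave 6 lower, against 3, in the cytoplasmic interaction, and other counts within 1.5 times.

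Leaving out each library gave these ranges. In cytoplasm they were 5 to 7 higher and 6 to 13 lower for auxin in DIS3-AID, 0 and 0 for auxin in control, 1 to 3 and 37 to 58 for the clone, and 6 to 8 and 1 to 7 for the interaction. On chromatin they were 2 to 6 and 5 to 15, 13 to 28 and 1 to 3, 19 to 31 and 22 to 29, and 1 to 4 and 13 to 32, in the same order. In polyA RNA they were 1 to 2 and 0 to 1, 0 and 0, 0 to 3 and 7 to 12, and 1 to 3 and 0 to 1. Chromatin against cytoplasm gave 38 to 40 and 95 to 99, and the response difference 36 to 63 and 3 to 7. Of 114 calls on named genes, DESeq2 lost 3, library sizes alone 23, no filter 7 and the block 2. Over the repeats that each leave out 1 library, a call was lost 167 times and kept 715 times; none changed sign. Members near the minimum of 10 counts limit what depth can show.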
